A study of Homo sapiens with 24 samples.

Results

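The comparison described here is the difference between 2 breast cancer cell lines in their first transcriptional response to the loss of methionine (Met). It is the change from 0 to 0.5 h in MB468res-R8 cells minus the same change in MB468 cells, and it was taken over all 26645 gene entries of the count table. It rests on 12 of the 24 RNA-seq libraries, 3 in each of 4 groups. MB468 is MDA-MB-468, a metastatic breast epithelial line that needs Met for proliferation. MB468res-R8 (MDA-MB-468res-R8 in full, R8 in the plots) is 1 clone derived from it that proliferates on homocysteine (Hcy), so clone and line cannot be told apart. At 0 h both lines were in Met+ medium with 100 µM Met, and at 0.5 h they had been moved to Met-Hcy+ medium with 370 µM DL-homocysteine and no Met. Both media held dialyzed serum, cysteine, glutamine and vitamin B12. No 0.5 h library comes from cells given fresh Met+ medium, so the change of medium and the change from Met to Hcy cannot be told apart within a line. The line difference removes only what both lines share.

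Cells make Met from Hcy through Met synthase, and Met is the source of S-adenosylmethionine, the methyl donor of the cell. A shortage of amino acids or stress in the endoplasmic reticulum (ER) leads to translation of ATF4, a transcription factor that raises genes for amino acid transport and redox balance. A change of medium also gives a burst of immediate early genes such as FOS, JUN and the EGR factors. Their transcription is turned on within minutes through serum response factor at CArG boxes and through CREB at cAMP response elements (CRE), without new protein synthesis.

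Promoters of 4 genes whose responses differed are shown as examples. They were picked because they hold sequence elements that were searched for, and other genes of their groups often lack them. Each line gives the 250 bases before a transcription start in RefSeq GRCh38.p14, 5′ to 3′ on the strand of the gene. EGR1 is at chr5:138465229-138465478 (plus strand), EGR2 at chr10:62816367-62816616 (minus strand, the third of its listed starts), CHAC1 at chr15:40953221-40953470 (plus strand) and CYP1A1 at chr15:74725529-74725778 (minus strand). Capitals mark matches on either strand to a CArG box, the CRE core TGACG, the C/EBP-ATF element TGATGNAA, the core GCGTG of xenobiotic response elements (XRE), or the core ACGTG of hypoxia response elements (HRE), which can overlap a CRE core.
EGR1: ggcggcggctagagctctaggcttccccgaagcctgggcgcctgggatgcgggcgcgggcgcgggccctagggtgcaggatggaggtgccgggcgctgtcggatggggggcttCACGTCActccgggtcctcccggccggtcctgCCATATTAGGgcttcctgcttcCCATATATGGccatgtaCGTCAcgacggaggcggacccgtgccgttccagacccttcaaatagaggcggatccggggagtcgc
EGR2: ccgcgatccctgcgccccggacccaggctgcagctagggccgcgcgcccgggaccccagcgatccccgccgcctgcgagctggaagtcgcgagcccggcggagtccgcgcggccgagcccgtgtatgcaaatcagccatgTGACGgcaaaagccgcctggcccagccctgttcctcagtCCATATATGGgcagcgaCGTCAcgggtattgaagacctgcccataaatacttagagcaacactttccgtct
CHAC1: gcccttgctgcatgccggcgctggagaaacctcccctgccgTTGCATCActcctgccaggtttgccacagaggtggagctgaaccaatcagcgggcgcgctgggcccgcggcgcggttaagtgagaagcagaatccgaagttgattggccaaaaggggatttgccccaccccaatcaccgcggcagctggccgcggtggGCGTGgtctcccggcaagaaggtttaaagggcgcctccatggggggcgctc
CYP1A1: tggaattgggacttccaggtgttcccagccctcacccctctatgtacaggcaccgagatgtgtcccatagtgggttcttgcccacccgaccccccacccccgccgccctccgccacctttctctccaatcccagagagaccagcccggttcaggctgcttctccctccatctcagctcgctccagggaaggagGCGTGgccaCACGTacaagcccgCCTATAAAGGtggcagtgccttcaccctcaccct
EGR1 held 2 CArG boxes. EGR2 held 1 at the start shown and none at its other listed starts. This motif was found in 1.16% of 35116 promoter windows of the same length. The letters CCTATAAAGG of CYP1A1 at -34 to -25 fit the pattern too. They hold TATAAA, the letters of a TATA box, and are not read as a CArG box here. In CHAC1, positions -209 to -202 matched the C/EBP-ATF element, which was present in 3.14% of windows. CYP1A1 held an XRE core at -57 to -53 and CHAC1 held one too, but 32.2% of all windows had one. Counting any listed start, 2 of 7 EGR and NR4A factors and 0 of 8 FOS and JUN family genes held a CArG box. The C/EBP-ATF element was in 4 of 21 targets of ATF4 and its partner CHOP. SESN2, another of these targets, held no match to any motif searched for. The XRE core was in 3 of 5 targets of the aryl hydrocarbon receptor. CRE cores were in 21.2% and HRE cores in 18.5% of windows. The full CRE (1.65% of windows) and the AP-1 site TGANTCA (6.57%) were searched for as well and are in none of the 4 shown. The last 3 motifs marked by capitals were added after the responses were seen, and a match is a description of letters, not of binding.

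Both lines changed many of the same genes within 0.5 h, and a small set changed by different amounts. Of 14741 genes that passed a filter on low counts, edgeR's quasi-likelihood test called 5000 in MB468 (33.9%), 2588 higher (17.6%) and 2412 lower (16.4%), and 4967 in MB468res-R8 (33.7%), 2558 higher (17.4%) and 2409 lower (16.3%). A call is a Benjamini-Hochberg adjusted p under 0.05. The lines shared 3479 called genes, 69.6% of those of MB468 and 70.0% of those of MB468res-R8, of which 3454 moved alike in direction and 25 moved oppositely. Across genes, which are not independent replicates, the log2 fold changes of the lines correlated at r = 0.629 over all tested genes and at r = 0.901 over the 6520 genes whose mean log2 CPM reached 5.

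The line difference was called for 428 genes, or 2.90% of those tested. Among them 177 (1.20%) had a higher log2 response in MB468res-R8 and 251 (1.70%) a lower one, and 38 (0.258%) differed at least 2-fold, 10 higher and 28 lower. The median line difference was 0.40 over the genes called higher, -0.50 over those called lower and 0.00 over all tested genes. Genes called higher had a median log2 fold change of -0.24 in MB468 and 0.13 in MB468res-R8. For genes called lower the medians were 0.05 and -0.43. The split by direction depended on the scaling: with spike-in totals in place of TMM factors, 101 genes were called, 80 higher and 21 lower, the median of all genes moved to 0.26, and 89 of the calls were shared. Of the 76 called genes that the naming rule picked, 29 kept the call with spike-in totals, all in the same direction, and these are pointed out in each group.

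**Figure D1:**
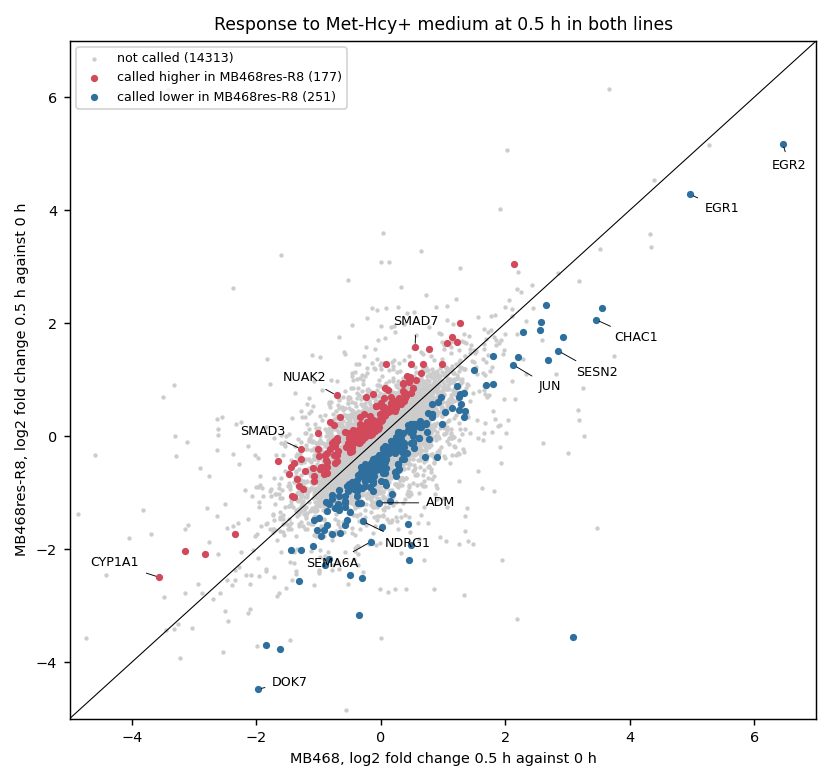
Log2 fold change from 0 to 0.5 h of each tested gene in MB468 (x axis) against MB468res-R8 (y axis), with the line of equal response. Grey points are genes whose line difference was not called, red points the 177 called higher and blue points the 251 called lower in MB468res-R8. CHAC1, SESN2, JUN, EGR1 and EGR2 lie high in both lines but under the line of equal response, while NUAK2 is to its upper left.

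The 12 libraries held 11745553 to 30345322 counts (median 20387751), and each library was nearest to another of its own group. Spike-in RNAs took 0.201 to 0.288% of the counts. Their share changed by 0.23 (log2) in MB468 and by -0.02 in MB468res-R8, and this difference of -0.25 gave an exact two-sided permutation p of 0.2, where the smallest possible p was 0.005. Markers of basal breast epithelium summed to between 10206 and 11911 CPM in all 12 libraries, and of 14 such markers TP63 (0.55) was called higher and KRT17 (-0.63) lower in the line difference. Of 10 tested markers of other cell types edgeR called 0, 3 had an unadjusted p under 0.05, and DESeq2 called 1. Over all tested genes 1931 of 14741 had an unadjusted p under 0.05 by edgeR. Fibroblast markers summed to between 27.1 and 73.2 CPM, of which COL1A1 alone gave 26.7 to 72.6, and COL1A2 was at 0 in 3 of the 4 groups. Of the leukocyte markers, MS4A1 and LST1 were at 0 in all 4. CD14, another leukocyte marker, was at 142 to 160 CPM in MB468 and 45.8 to 51.1 CPM in MB468res-R8, and its line difference of 0.01 did not pass. The 4 endothelial markers summed to 259.6 to 292 CPM at 0 h and 183 to 240.2 at 0.5 h in MB468. In MB468res-R8 they summed to 46.0 to 49.9 and then 19.5 to 29.2. KDR alone gave 256 to 289 and then 182 to 239 CPM in MB468. In MB468res-R8 it gave 40.7 to 45.1 and then 16.9 to 27.1. PECAM1, VWF and CDH5 were at 2.63 CPM or less in each library, and the part of these markers in the results was not tested. In bulk RNA, fewer cells with a transcript and less of it per cell cannot be told apart. The labels do not say that replicates were separate cultures, so the p-values measure the spread between these samples.

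Of the genes of the amino acid response, CHAC1 and SESN2 rose in both lines and by less in MB468res-R8. Of 25 tested targets of ATF4 and its partner CHOP, 16 rose and 3 fell in MB468, and 14 rose and 4 fell in MB468res-R8, where over all genes 17.6% and 16.4%, and 17.4% and 16.3%, did. The line difference was called lower for 5 of the 25 and higher for 0, against 1.70% and 1.20% of all tested genes, with a list median of -0.09. CHAC1 (chr15:40953471-40956512), which degrades glutathione, gave normalized counts of 113, 131 and 126 at 0 h and 1335, 1176 and 1606 at 0.5 h in MB468, and 228, 243 and 225 and then 921, 945 and 1039 in MB468res-R8, with replicates 1 to 3 in order here and below. It started higher in MB468res-R8 and ended lower, and no groups overlapped. The log2 fold change was 3.46 in MB468 and 2.06 in MB468res-R8, a line difference of -1.40 (SE 0.14, adjusted p = 1.59e-08). SESN2 (chr1:28259518-28282491), a leucine sensor that holds back mTORC1, gave 205, 174 and 188 at 0 h and 1391, 1230.5 and 1472 at 0.5 h in MB468, and 358, 358 and 378 and then 952, 1048 and 1120.0 in MB468res-R8. SESN2 had the same order of groups as CHAC1, with log2 fold changes of 2.85 and 1.51 and a line difference of -1.34 (SE 0.13, adjusted p = 1.74e-09). Both calls held with spike-in totals.

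The other 3 calls of that list, which were lost with spike-in totals, included a transporter that fell. SLC7A5 (chr16:87830023-87869507), the light subunit of the leucine and Met transporter, known as LAT1, gave 43397, 43404 and 44763 at 0 h and 29421, 26843 and 32041 at 0.5 h in MB468, and 57072, 60640.2 and 50323 and then 25413, 24529.6 and 25696 in MB468res-R8. It fell in both lines and fell further in MB468res-R8, with a line difference of -0.58 (SE 0.10, adjusted p = 0.00115). VLDLR, a lipoprotein receptor, and VEGFA, the angiogenic growth factor, rose in both lines. Their line differences were -0.57 (SE 0.10) and -0.33 (SE 0.06). ATF4 itself differed by 0.04 (SE 0.05) between the lines, ASNS (asparagine synthetase) by -0.08 (SE 0.10) and DDIT3, which encodes CHOP, by -0.45 (SE 0.17), and none of these passed the test. DDIT3 rose in both lines, from 73.6, 93.2 and 75.9 to 321, 284 and 369 in MB468 and from 110.2, 103 and 90.2 to 284, 293 and 307 in MB468res-R8. Among 15 ER chaperones and degradation factors 1 was called higher, the co-chaperone DNAJB9 (0.57), and 1 lower, HERPUD1 (-0.56), a factor of ER-associated degradation. Over all tested genes 1.20% were called higher and 1.70% lower. The DNAJB9 call was kept with spike-in totals.

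**Figure D2:**
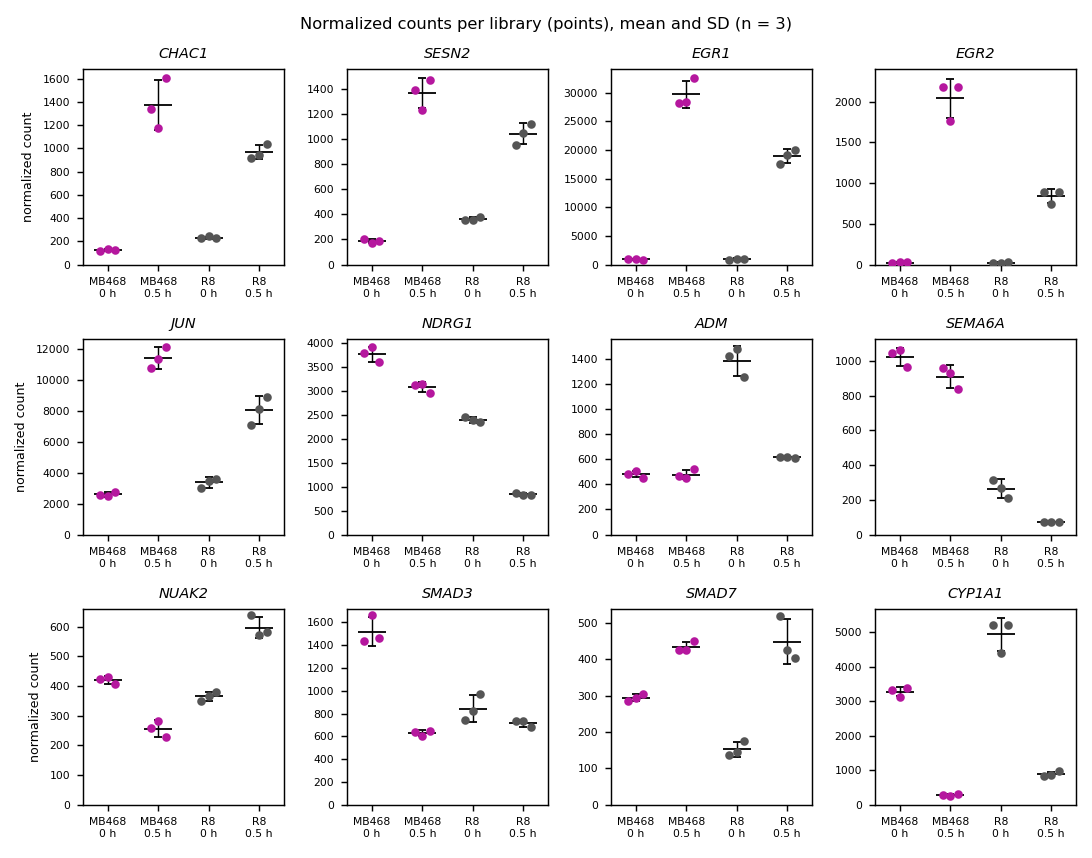
Normalized counts of 12 genes in each of the 12 libraries (points; purple MB468, grey MB468res-R8) with the mean and SD of each group (n = 3). The induced genes CHAC1, SESN2, EGR1, EGR2 and JUN reached lower levels in MB468res-R8 at 0.5 h, while NDRG1 fell further there, ADM and SEMA6A passed the test for a fall in MB468res-R8 and not in MB468, and NUAK2 went up in MB468res-R8 and down in MB468.

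The immediate early genes EGR1, EGR2, EGR3 and EGR4 rose in both lines and by less in MB468res-R8. Of 9 tested EGR and NR4A factors and their corepressors, 6 rose and 1 fell in MB468, and 6 rose and 2 fell in MB468res-R8. Over all genes 17.6% rose and 16.4% fell in MB468, and 17.4% and 16.3% in MB468res-R8. The line difference was called lower for 5 and higher for 0, against 1.70% and 1.20% of all tested genes, and the list median was -0.99. EGR1 (chr5:138465479-138469303), a zinc finger activator, gave 994, 966 and 866 at 0 h and 28276, 28325 and 32487 at 0.5 h in MB468, and 869, 1048 and 1019 and then 17628, 19103 and 20082 in MB468res-R8. The 0 h groups overlapped between the lines and the 0.5 h groups did not. Its line difference was -0.69 (SE 0.14, adjusted p = 0.00979), from log2 fold changes of 4.97 and 4.28. EGR2 (chr10:62811996-62819167), a close relative, gave 17, 26.3 and 26.7 at 0 h and 2181, 1761 and 2183 at 0.5 h in MB468, and 23, 19 and 28.8 and then 898, 749 and 898 in MB468res-R8. This was the same pattern at far fewer counts, with log2 fold changes of 6.46 and 5.18 and a line difference of -1.28 (SE 0.28, adjusted p = 0.00357). EGR3 (-1.28) and EGR4 (-0.88) were called lower as well. The calls of EGR2 and EGR4 were lost when reads were thinned to the smallest library (adjusted p = 0.431 and 0.138). Of these calls, EGR3's alone was kept with spike-in totals, but it was lost in a fit of the 12 libraries only (adjusted p = 0.0792). Leaving out any of several single libraries cost the calls of EGR3 and EGR4. Without MB468 replicate 2 at 0 h both were lost (adjusted p = 0.0565 and 0.162). EGR3 was also lost without MB468res-R8 replicate 1 or 2 at 0 h (adjusted p = 0.0628 and 0.0718). Of 22 other settings, EGR3 was called in 17 and EGR4 in 12.

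The orphan nuclear receptors of that list varied more between replicates. NR4A1 gave 2816, 1937 and 2292 at 0 h and 15564, 13574 and 16136 at 0.5 h in MB468, and 6001, 5640.2 and 3202 and then 15493, 11087 and 11369.5 in MB468res-R8. MB468res-R8 replicate 3 was low at 0 h, and replicate 1 of that line was high at 0.5 h. The line difference of NR4A1 was -1.34 (SE 0.30, adjusted p = 0.0187), and the call was lost without MB468 replicate 2 or MB468res-R8 replicate 1 or 2 at 0 h, or MB468res-R8 replicate 2 or 3 at 0.5 h. It was also lost with spike-in totals and in the fit of the 12 libraries only, with or without the replicate block. NR4A2 had a line difference of -0.99 (SE 0.35) and NR4A3 of -1.22 (SE 0.58), and neither passed. NR4A3 showed the same libraries apart, at 2918, 2640.0 and 1502 at 0 h and 938, 309.8 and 325 at 0.5 h in MB468res-R8, and in MB468 at 480.4, 151 and 173 at 0.5 h.

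Of 9 FOS and JUN family genes 6 rose and 3 fell in MB468, and 5 rose and 3 fell in MB468res-R8. Over all genes 17.6% and 16.4%, and 17.4% and 16.3%, did. The line difference was called lower for 2 and higher for 0, against 1.70% and 1.20% of all tested genes, with a median of -0.38. JUN (chr1:58780791-58784047), a subunit of AP-1, gave 2544, 2494 and 2760.0 at 0 h and 10746, 11321 and 12129 at 0.5 h in MB468, and 2989, 3490.2 and 3619 and then 7085, 8142 and 8896 in MB468res-R8. JUN rose in both lines with no overlap of 0 and 0.5 h, by 2.13 in MB468 and 1.26 in MB468res-R8, a line difference of -0.88 (SE 0.13, adjusted p = 0.000462). JUNB differed by -0.44 (SE 0.09). FOS, the partner of JUN, gave 193, 196 and 204 at 0 h and 6695, 7526 and 8916 at 0.5 h in MB468, and 296, 301 and 269 and then 9685, 10912 and 10599.5 in MB468res-R8. FOS rose by 5.28 and 5.16, and its line difference of -0.12 (SE 0.14) did not pass the test. ATF3 differed by -0.56 (SE 0.20) and did not pass either. Neither AP-1 call was kept with spike-in totals.

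Other early genes went both ways. Of 11 genes of the ZFP36, BTG and IER families, which mostly encode regulators of mRNA decay and growth, ZFP36 (-0.55) and IER2 (-0.68) were called lower and ZFP36L2 (0.61) and TOB2 (0.26) higher. ZFP36L2, an mRNA decay factor, gave 4201, 3898 and 4050.0 at 0 h and 4078, 3749.6 and 3688 at 0.5 h in MB468, and 4954, 4972 and 4942 and then 7179, 6754 and 7605 in MB468res-R8. ZFP36L2 rose by 0.53 in MB468res-R8, with -0.07 in MB468, which did not pass, and had a line difference of 0.61 (SE 0.07, adjusted p = 9.67e-08). Of 12 KLF factors KLF4 (-0.65), KLF5 (-0.34) and KLF6 (-0.39) were called lower and 0 higher. KLF4 was called in only 11 of 22 other settings. Of 11 targets of SRF and YAP, CYR61 (-0.60), a matricellular protein, and LATS2 (-0.36), a Hippo kinase, were called lower, and SRF (0.31) and VCL (0.20) higher. The EGFR ligand HBEGF (0.53) and the ERK phosphatase DUSP6 (0.59) were the calls among 11 EGFR family genes and 14 genes of MAPK feedback, both higher. Over all tested genes 1.20% were called higher and 1.70% lower, so a single edgeR call in 11 or 14 genes is near the background. DESeq2 called 3 of the 14 genes of MAPK feedback higher and 0 lower, and 1 of the 12 KLF factors higher and 3 lower. Over all 12723 genes that it adjusted for, it called 228 higher and 284 lower. Of the genes in this paragraph, ZFP36L2 and HBEGF kept their calls with spike-in totals.

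Among targets of hypoxia inducible factors, NDRG1, ADM, CA9, PDK1 and VEGFA had a lower response in MB468res-R8. Of 10 tested, 5 were called lower and 0 higher, against 1.70% and 1.20% of all tested genes, and the list median was -0.40. VEGFA is in this list and in that of ATF4. NDRG1, a growth and stress response gene, had the smallest p of all tested genes. It gave 3788, 3922 and 3613 at 0 h and 3131, 3158 and 2962 at 0.5 h in MB468, and 2461, 2396 and 2347 and then 875, 819 and 824 in MB468res-R8. No groups overlapped, and the fall was 1.51 on the log2 scale in MB468res-R8 against 0.29 in MB468, a line difference of -1.22 (SE 0.08, adjusted p = 1.03e-13). ADM (chr11:10305073-10307397), a vasodilator peptide, gave 485, 507 and 454 at 0 h and 463, 448 and 519 at 0.5 h in MB468, and 1426, 1475 and 1251 and then 614, 619.6 and 608 in MB468res-R8. In MB468 the groups overlapped and did not pass the test. In MB468res-R8 ADM fell without overlap toward the level of MB468, a line difference of -1.14 (SE 0.11, adjusted p = 1.74e-09). CA9 (carbonic anhydrase 9) gave 185, 159 and 169 at 0 h and 231, 260.4 and 262 at 0.5 h in MB468, and 708, 703 and 619.8 and then 556, 605 and 605 in MB468res-R8. It rose in MB468 and fell in MB468res-R8, where its level stayed above that of MB468, and its line difference was -0.75 (SE 0.12, adjusted p = 0.000105). PDK1, a kinase that restrains pyruvate dehydrogenase, differed by -0.46 (SE 0.09). NDRG1 and ADM kept their calls with spike-in totals.

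Some genes of glucose metabolism and cAMP signalling also had a lower response in MB468res-R8. Among 7 tested genes of the TXNIP, arrestin-domain and glucose list 3 were called lower, the alpha-arrestin ARRDC3 (-0.49), the glycolytic regulator PFKFB3 (-0.30) and hexokinase HK2 (-0.44), and 0 higher, with a median of -0.30. PFKFB3 was called in only 10 of 22 other settings. Of 8 cAMP and CREB targets 3 were called lower and 0 higher, and the median was -0.58. Over all tested genes 1.70% were called lower and 1.20% higher. CREM (chr10:35126846-35212958), a CREB family factor with repressor isoforms, gave 465, 483 and 427 at 0 h and 527, 566 and 537 at 0.5 h in MB468, and 806, 691 and 664 and then 468, 422 and 432 in MB468res-R8. The lines moved in opposite directions, up in MB468 and down in MB468res-R8, with a line difference of -0.95 (SE 0.11, adjusted p = 6.48e-08). CITED2 (-0.58), a coactivator partner, and the CREB coactivator CRTC3 (-0.53) were the others. Calls of both lists were lost with spike-in totals.

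Another 7 genes were named because they were among the 12 with the smallest p of those with a lower response in MB468res-R8. SEMA6A (chr5:116443555-116574823), a semaphorin, gave 1043, 1061 and 965 at 0 h and 959, 931 and 837 at 0.5 h in MB468, and 316, 267 and 212 and then 74.1, 72.6 and 73.7 in MB468res-R8. It fell in MB468res-R8 to 3 nearly equal values, the groups in MB468 did not pass the test, and the line difference was -1.71 (SE 0.16, adjusted p = 8.21e-09). FOXC1, a forkhead factor of basal-like breast cancer, gave 1172, 1222 and 1176 at 0 h and 1234, 1366 and 1198 at 0.5 h in MB468, and 795, 868 and 727 and then 431, 414 and 479 in MB468res-R8. FOXC1 fell in MB468res-R8 by 0.86 on the log2 scale, with 0.09 in MB468, which did not pass, and a line difference of -0.95 (SE 0.10, adjusted p = 7.20e-09). LMO7, a junctional LIM protein, gave 1788, 1753 and 1911 at 0 h and 2228, 2085 and 2351 at 0.5 h in MB468, and 1436, 1512 and 1224 and then 969, 931 and 893 in MB468res-R8. LMO7 rose in MB468 and fell in MB468res-R8 with no overlap of groups, a line difference of -0.87 (SE 0.08, adjusted p = 1.74e-09). The Polycomb cofactor JARID2 (-0.82), TMEM2 (-0.65), the inositol phosphate kinase ITPKB (-0.89) and the transferrin receptor TFRC (-0.50) were the others. SEMA6A kept its call with spike-in totals and the other 6 lost theirs.

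NUAK2 and the TGF-beta pathway genes SMAD3 and TGIF1 had the smallest p of the genes with a higher response in MB468res-R8. NUAK2 (chr1:205302063-205321745), an AMPK-related kinase, gave 424, 431 and 406 at 0 h and 257, 283 and 227 at 0.5 h in MB468, and 348, 365 and 380.5 and then 638, 570.0 and 581 in MB468res-R8. All counts at 0.5 h were below those at 0 h in MB468 and above them in MB468res-R8. The fall was 0.71 and the rise 0.72 on the log2 scale, and the line difference was 1.42 (SE 0.12, adjusted p = 1.15e-10). SMAD3 (chr15:67065602-67195169), the receptor-regulated SMAD of TGF-beta, gave 1433, 1663 and 1464 at 0 h and 635, 599 and 646 at 0.5 h in MB468, and 739.9, 822 and 968 and then 733, 733 and 679 in MB468res-R8. The fall was 1.28 on the log2 scale in MB468, with no overlap, and 0.23 in MB468res-R8, where the groups nearly met, for a line difference of 1.06 (SE 0.11, adjusted p = 1.11e-08). Of 12 listed TGF-beta and BMP targets 3 were called higher and 2 lower, against 1.20% and 1.70% of all tested genes, and the median was 0.07. SMAD7 (chr18:48919853-48950965), the inhibitory SMAD, gave 286, 295 and 304 at 0 h and 425, 426 and 450.1 at 0.5 h in MB468, and 136, 145 and 175 and then 519, 425 and 404 in MB468res-R8. It began at a lower level in MB468res-R8 and overlapped MB468 at 0.5 h, with a line difference of 1.03 (SE 0.14, adjusted p = 2.91e-06). TGIF1, a SMAD corepressor, showed the same order, at 2557, 2561 and 2534 at 0 h and 3470.3, 3429 and 3734 at 0.5 h in MB468, and 1680.4, 1717 and 1697 and then 3599, 3414 and 3434 in MB468res-R8. The line difference of TGIF1 was 0.57 (SE 0.06, adjusted p = 1.56e-08). ID3 (0.92), an inhibitor of differentiation factors, was called higher, and BAMBI (-0.92), a decoy receptor, and PMEPA1 (-0.40), a feedback inhibitor, lower. NUAK2, SMAD3, SMAD7, TGIF1 and ID3 kept their calls with spike-in totals.

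Targets of the aryl hydrocarbon receptor (AHR) mostly fell in both lines, and CYP1A1 and CYP1B1 fell by less in MB468res-R8. Of 7 tested, AHR itself included, 5 fell in each line, against 16.4% of all genes in MB468 and 16.3% in MB468res-R8. AHR is among the 5 in MB468res-R8. The line difference was called higher for 2 and lower for 1, against 1.20% and 1.70% of all genes, and the list median was 0.55. CYP1A1 (chr15:74719542-74725528), a xenobiotic-metabolizing P450, gave 3337, 3121 and 3384 at 0 h and 277, 250.3 and 317 at 0.5 h in MB468, and 5216, 4402 and 5216 and then 815, 856 and 969 in MB468res-R8. It fell in both lines with no overlap of 0 and 0.5 h and stayed higher in MB468res-R8 at 0.5 h. The log2 fold changes were -3.56 and -2.50, with a line difference of 1.07 (SE 0.11, adjusted p = 1.56e-08). CYP1B1, a related P450, gave 31984, 31792 and 33047 at 0 h and 12802, 11685 and 12235 at 0.5 h in MB468, and 27382, 26894 and 28074 and then 13323, 12808 and 13154 in MB468res-R8. The lines did not overlap at 0 h, at 0.5 h they were close, and the line difference was 0.33 (SE 0.06, adjusted p = 0.000283). AHR itself moved the other way, up in MB468 (0.21) and down in MB468res-R8 (-0.12), a line difference of -0.33 (SE 0.07, adjusted p = 0.00236). TIPARP, which represses AHR, had 0.55 and did not pass (adjusted p = 0.0778). CYP1A1 alone of the 3 called genes kept its call with spike-in totals.

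The inflammatory genes NFKBIA and ICAM1 also had a higher response in MB468res-R8. Of 14 tested NF-kB targets 3 were called higher and 0 lower, against 1.20% and 1.70% of all tested genes, and the median was 0.19. NFKBIA, the inhibitor of NF-kB, gave 1552, 1476 and 1471 at 0 h and 1949.7, 1845 and 1928 at 0.5 h in MB468, and 1105, 1149 and 1326 and then 2398, 2230.3 and 2105 in MB468res-R8. It rose in both lines and by more in MB468res-R8, a line difference of 0.57 (SE 0.08, adjusted p = 2.79e-06). ICAM1, a leukocyte adhesion molecule, fell in both lines, from 2601, 2595 and 2511 to 1231, 1269.6 and 1416 in MB468 and from 990.5, 1050.4 and 1021 to 845, 836 and 715 in MB468res-R8. The fall was smaller in MB468res-R8, which began lower, and the line difference was 0.64 (SE 0.09, adjusted p = 2.76e-06). NFKBIE was called with a line difference of 0.48 (SE 0.13), but the call was lost in 12 of 22 other settings. Among them were spike-in totals, the fit of the 12 libraries only and thinning to the smallest library. CXCL8 had 1.03 (SE 0.29) and did not pass.

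CSF1 (chr1:109910506-109930992), the macrophage growth factor, gave 2052, 2228 and 2159.9 at 0 h and 1962, 1764 and 2237 at 0.5 h in MB468, and 2094, 2233 and 2423 and then 3706, 3819 and 3749 in MB468res-R8. The lines overlapped at 0 h, and CSF1 rose by 0.74 in MB468res-R8, with -0.12 in MB468, which did not pass, for a line difference of 0.87 (SE 0.10, adjusted p = 1.50e-06). OSMR, the oncostatin M receptor, fell in MB468 by 0.33 and rose in MB468res-R8 by 0.22 on the log2 scale. Its line difference was 0.55 (SE 0.07, adjusted p = 1.65e-07). ENC1, an actin-binding BTB protein, gave 3830.5, 4245 and 3881 at 0 h and 1991, 2094 and 1824 at 0.5 h in MB468, and 2180.0, 2339 and 2807 and then 2587, 2494 and 2504 in MB468res-R8, and its values in MB468res-R8 overlapped between 0 and 0.5 h. ENC1 fell in MB468 and had a line difference of 1.07 (SE 0.10, adjusted p = 6.48e-08). TIMP3 (0.42), a metalloproteinase inhibitor, the phosphate transporter SLC20A2 (0.44), the ankyrin protein ANKRD33B (1.11) and ZNF788 (1.19) were called higher too. ICAM1, NFKBIA, CSF1, OSMR, ENC1, TIMP3, SLC20A2, ANKRD33B and ZNF788 kept their calls with spike-in totals.

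**Figure D3:**
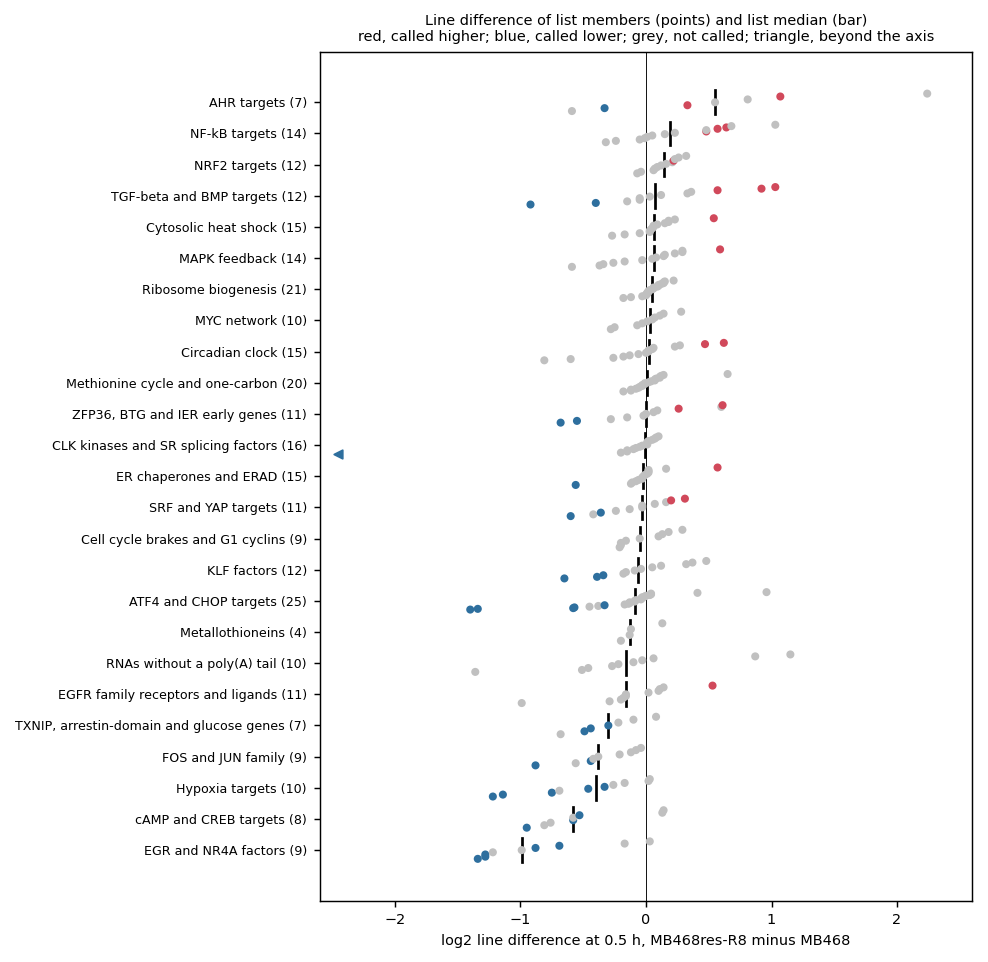
Log2 line difference at 0.5 h (x axis) of the tested members of the gene lists described (rows, number tested in brackets), with the list median as a black bar. Red and blue points passed the test and grey points did not; the medians run from -0.99 for EGR and NR4A factors to 0.55 for AHR targets, and 1 point, CLK2, lies beyond the axis.

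Of 20 tested genes of the Met cycle and one-carbon metabolism, edgeR's quasi-likelihood test called 0, 1 had an unadjusted p under 0.05, the DESeq2 Wald test called 0, and the median was 0.01. With 2.90% of all genes called, 0 of 20 is near the background. An unadjusted p under 0.05 was reached by 1931 of all 14741 tested genes, to be set beside the counts given here. MAT2A, the S-adenosylmethionine synthetase, gave 8616, 8652 and 9040.2 at 0 h and 7304, 6895 and 6769.5 at 0.5 h in MB468, and 9386, 9982 and 8898 and then 7191, 6336 and 6374 in MB468res-R8. MAT2A fell in both lines, and its line difference of -0.18 (SE 0.07) did not pass (adjusted p = 0.189). Also without a call by edgeR or DESeq2 were 21 genes of ribosome biogenesis (4 with an unadjusted p under 0.05), of which 18 fell in each line. No call was made either among 10 genes of the MYC network (3), 9 cell cycle brakes and G1 cyclins (4) and 4 metallothioneins (1). Nor was there one among 10 genes listed as RNAs without a poly(A) tail (0). The libraries were of poly(A) RNA, and whether members of this last list lack a tail was not tested. The heat shock protein HSPA1A (0.54) and the autophagy receptor SQSTM1 (0.22) were the edgeR calls of 15 cytosolic heat shock and 12 NRF2 genes, both higher. With 2.90% of all genes called, a single call in a list of that length is near the background. DESeq2 called 1 and 2 genes of these lists, all higher. Of 15 clock genes TEF (0.47) and BHLHE41 (0.62) were called higher and 0 lower, against 1.20% and 1.70% of all tested genes. PER1 (-0.81) and PER2 (-0.60) did not pass. DESeq2 called 2 of the 15 higher and 2 lower. HSPA1A may share reads with a near-identical copy and is uncertain. HSPA1A and TEF kept their calls with spike-in totals.

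The lines' levels were also compared at each time. The median log2 level of MB468res-R8 relative to MB468 was -0.32 at 0 h and 0.06 at 0.5 h over genes called higher, and 0.41 and -0.11 over genes called lower. At 2 h these medians were -0.27 and 0.17, and at 12 h -0.42 and -0.30. The line difference is the level at 0.5 h minus the level at 0 h, from the same libraries. The shift of these medians between 0 and 0.5 h thus follows from how the genes were picked. The values are set side by side and nothing is tested between them. CHAC1 stood at 0.91 at 0 h and -0.49 at 0.5 h on that scale, SMAD7 at -0.97 and 0.06, and SEMA6A at -1.93 and -3.63. EGR1 was at 0.04 at 0 h and -0.65 at 0.5 h.

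The line difference of some genes was larger at later times, measured from the same 0 h libraries. CHAC1 had a line difference of -2.41 (adjusted p = 1.03e-14) at 2 h and -4.74 (adjusted p = 3.90e-24) at 12 h. For SESN2 it was -2.22 (adjusted p = 4.45e-16) and -3.22 (adjusted p = 1.43e-22). EGR1, which differed by -0.69 at 0.5 h, was at -4.32 (adjusted p = 1.13e-12) at 2 h, when its mean normalized count was 652 in MB468res-R8 and 12802 in MB468. FOS, which was not called at 0.5 h, had -2.16 (adjusted p = 1.37e-09) at 2 h. NDRG1 had the smallest p at 0.5 h, but its line difference was -0.08 (adjusted p = 0.687) at 2 h. NUAK2 turned from 1.42 at 0.5 h to -0.92 (adjusted p = 2.81e-07) at 2 h, and SMAD7 from 1.03 to -0.70 (adjusted p = 0.00218).

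**Figure D4:**
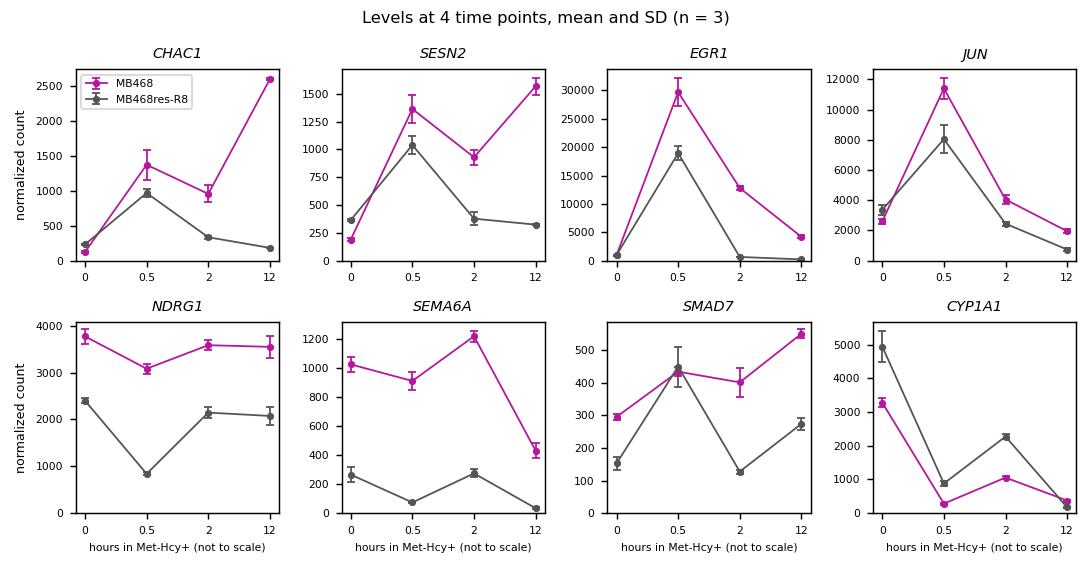
Mean normalized counts with SD (n = 3) of 8 genes at 0, 0.5, 2 and 12 h in MB468 (purple) and MB468res-R8 (grey); the time axis is not to scale. EGR1 was at 652 in MB468res-R8 and 12802 in MB468 at 2 h, and NDRG1 was low at 0.5 h in MB468res-R8 and back by 2 h.

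The genes named for the size of their fitted difference mostly had few counts. DOK7, an adaptor of the neuromuscular junction, gave 108, 107 and 99.8 at 0 h and 26.8, 23.5 and 30.8 at 0.5 h in MB468, and 21.4, 30.2 and 30.1 and then 0, 2.42 and 1.23 in MB468res-R8. LINC00689, a noncoding RNA, gave 67.3, 46.2 and 35.1 at 0 h and 45.4, 46.9 and 25 at 0.5 h in MB468, and 17.4, 17.9 and 7.85 and then 2.62, 4.84 and 0 in MB468res-R8. Their 0.5 h values in MB468res-R8 were at the detection limit, so no fold is given, and DOK7 (adjusted p = 0.00701) and LINC00689 (adjusted p = 0.0458) both lost the call when reads were thinned to the smallest library. MAPK4, an atypical kinase, fell in both lines, from 102, 114 and 82.4 to 6.11, 8.47 and 7.37 in MB468res-R8. Its values at 0.5 h in that line are below 10 counts too, so no fold is given for the call (adjusted p = 0.00461), and MAPK4 is not tested when at least 10 counts are required in each of the 12 libraries. ACVR1C, an activin receptor, fell in MB468res-R8, from 94.4, 78.3 and 85 to 15.7, 46 and 28.2 (line difference -2.0, SE 0.44, adjusted p = 0.00454). The transporter SLC16A6 was called higher at 1.22 (SE 0.34, adjusted p = 0.0339), and the call was lost in 12 of 21 other settings. CLK2, a splicing kinase, was called among 16 CLK and SR genes, but its values of 0.897, 4.78 and 5.62 at 0 h and 57.3, 15.6 and 13.5 at 0.5 h in MB468, and 34.1, 28 and 2.62 and then 0, 2.42 and 3.68 in MB468res-R8 were low and uneven within groups, so no fold is given. CLK2 may share reads with a near-identical copy and is uncertain. MAPK4, ACVR1C and CLK2 kept their calls with spike-in totals.

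Exons of SMAD3, ENC1, OSMR, ICAM1, SEMA6A, LMO7, CREM, TFRC, ZFP36L2, ANKRD33B, SLC16A6, SLC20A2, LINC00689, CA9, JUNB, IER2, SLC7A5, VLDLR, VEGFA, CYP1B1, NR4A1, EGR3, AHR, ARRDC3, BHLHE41, CRTC3, DUSP6, KLF4, PDK1, PER2, PMEPA1, SQSTM1, VCL and MAT2A overlap annotated exons on the opposite strand. Whether counting used the strand is not given in the sources used here, so reads of these genes and their neighbours cannot be told apart. Overlaps of ATF4, ASNS, DDIT3, FOS, NR4A2, NR4A3, ZNF788, TMEM2, CYR61, TP63, KRT17 and the genes of cell type markers were not looked up.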

How the data were processed

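Libraries of poly(A) RNA held ERCC spike-ins and were read single-end at 100 bp. The reference was GRCh38/hg38 plus the ERCC sequences, and the authors deposited raw counts per gene from featureCounts. The submitters' processing notes name HISAT2 2.1.0 and Subread 1.5.3, and strand use in counting is not given in the sources used here. Their table covers 24 libraries, with 26645 gene rows and 92 rows for spike-ins.

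The tests were run with edgeR 4.0.16 (R 4.3.3). After removal of the spike-ins, 14741 genes passed filterByExpr with its minimum count of 10 and minimum total of 15. Libraries were scaled by TMM, and glmQLFit with robust dispersions fitted a mean for each of the 8 groups, so that 2 h and 12 h libraries share the estimate of spread. The line difference was a contrast of that model, tested with glmQLFTest and adjusted over all 14741 genes by the Benjamini-Hochberg method, and so were each line's response and the lines' levels. A normalized count is the count over the library's TMM effective size, times the mean of those sizes. Markers are given as CPM. The spike-in share was compared with an exact permutation test. The study used DESeq2 after RUVSeq, whose settings are not given in the sources used here; DESeq2 1.42.0 and a spike-in factor were run as alternatives, with spike-in totals as library sizes, other filters, the 12 libraries alone, a block for the replicate number, a threshold of 0.01, thinning to the smallest library, and each library left out in turn. Code was tested on simulated data.

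Named are, of the called genes, the 12 with the smallest p and the 4 with the largest fold at a mean of at least 1 CPM in each direction, and in each list up to 4 members by smallest p and all members called. ATF4, ASNS, DDIT3, FOS, NR4A2 and NR4A3 were added after their values were seen. Some genes that the rule picks, and 1 gene list, are not reported here. The members and lists were chosen with earlier results of these data known. Gene coordinates and the 250 bases before a start are from RefSeq GRCh38.p14, with promoters for 99 of the 127 named genes, and exon overlaps from GENCODE; their releases need not be the authors'. The deposited table of normalized counts holds no 0.5 h libraries, and that of results holds the authors' own fold changes and p-values; neither was used.

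Totals of 11745553 to 30345322 counts set the precision of low genes: below about 10 counts in a library a fold is not informative.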

Additional observations from a re-analysis of the deposited data

Results flagged for a closer look

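The response at 0.5 h differed between the lines, by a test of the difference itself, for 428 genes, of which 177 were higher and 251 lower in MB468res-R8 and 38 differed at least 2-fold. Of the genes named by rule, 9 were called in both lines with opposite directions. NUAK2 (log2 line difference 1.42) and OSMR (0.55) fell in MB468 and rose in MB468res-R8. LMO7 (-0.87), CREM (-0.95), CA9 (-0.75), ARRDC3 (-0.49), KLF5 (-0.34) and AHR (-0.33) rose in MB468 and fell in MB468res-R8. CLK2 did so too, but its fitted value of -6.64 rests on libraries with 0 to 57.3 normalized counts, depends on the prior count and is no bound on a fold.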

How the results depend on the processing

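With spike-in totals as library sizes the line difference was called for 101 genes in place of 428, the response of MB468 for 3287 in place of 5000 (14% of them higher in place of 51.8%) and that of MB468res-R8 for 2023 in place of 4967 (59.0% in place of 51.5% higher), and the median of all genes moved to 0.26, -0.20 and 0.04. The cause was not tested. With no low-count filter 95 genes were called and at least 2-fold in place of 38, over 21284 genes in place of 14741, and at an adjusted p under 0.01 the line difference was called for 232. The other settings gave 337 to 512 calls with 1 exception, no low-count filter, at 626. Leaving out 1 library at a time gave 290 to 451 calls, 27 to 50 that were also at least 2-fold, 4146 to 5016 in MB468 and 4183 to 5079 in MB468res-R8, and a line difference of the spike-in share of -0.33 to -0.12 (log2). Of the 428 genes 68 were called in all 23 settings, the stricter threshold included. To look for pairing, each group's mean was taken from the log2 CPM, and the deviations were correlated between libraries of different groups. On average the replicate number did not pair the samples. The mean r was -0.03 over 6520 genes for same-numbered libraries (18 pairs, -0.49 to 0.26) and 0.01 for others. With so wide a range this cannot decide whether some libraries or genes share a batch, and what the number marks is not given. With the number as a block, 406 genes were called, or 408 over the 12 libraries only. Under the settings run, 25 of the 76 genes picked by the naming rule and called were called in each, and most losses came with spike-in totals (47 genes). Leaving out 1 library at a time cost 3 to 16 of these 76 calls, 16 of them without MB468res-R8 replicate 1 at 0 h, and 56 genes kept the call in all 12 such fits. The other 20 (among them ARRDC3, BHLHE41, DOK7, DUSP6, EGR3, EGR4, HSPA1A, KLF4, LATS2, LINC00689, NFKBIE, NR4A1, PFKFB3, PMEPA1, SLC16A6, SQSTM1, SRF, TOB2 and VCL) lost it in at least 1, at adjusted p-values of 0.0505 to 0.213. Depth limits genes such as DOK7 and LINC00689, at 0 in 1 library each.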
